A study of Mus musculus with 8 samples.

Results

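Genes of the extracellular matrix and of its integrin receptors were read in TT-seq data from mouse embryonic stem cells that carry mutant histone H3.3. They were chosen by symbol alone: collagens, laminins, integrins, fibulins, fibrillins, nidogens, thrombospondins, Sparc genes, fibronectin, perlecan, agrin, tenascin C and versican. Of 16896 genes with a row in at least 1 of 4 tables, 67 matched: 23 collagens, 9 laminin chains, 17 integrin subunits, 14 other matrix genes and 4 that share only the first letters of a name. Those 4 are Itgb1bp1, Itgb1bp2, Itgb3bp and Col4a3bp, a ceramide carrier, and they were kept apart. The annotation holds 106 protein-coding symbols of this pattern, and the other 39 were not analysed here.

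TT-seq captures RNA made during a short pulse of 4-thiouridine (4sU), here 500 nM for 5 min. Values stand for newly made RNA and not for protein. As normalized counts, they are read as relative amounts. All 8 libraries came from ES-E14TG2a (E14), an embryonic stem cell line from a male mouse. Wildtype cells gave 3 libraries, described as biological replicates. The other 5 libraries came from lines with the K122A substitution in H3.3, the H3 variant encoded by H3f3a and H3f3b, each line profiled a single time. The single-targeted group held a line of H3f3a A/A H3f3b WT/WT together with a line of H3f3a WT/WT H3f3b A/A, so 2 alleles were mutant in each. The dual-targeted group, with 3 mutant alleles each, was 2 clones of H3f3a A/A H3f3b WT/A, called the clones, plus a line of H3f3a WT/A H3f3b A/A, called the third line. The spread within a mutant group is therefore a spread between clonal lines, and in part between genotypes. The wildtype libraries are replicates, so the 2 sides of a comparison with wildtype hold unlike kinds of spread. The labels describe medium with LIF and with LIF and 2 inhibitors, and do not say which these libraries used. In bulk RNA, fewer cells that make a transcript and less RNA per cell cannot be told apart.

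The matrix around early embryonic cells is mainly a basement membrane. Laminins assemble from an α, a β and a γ chain into the first sheet, nidogens and perlecan bind to it, and a network of type IV collagen joins it. Integrins are pairs of an α and a β subunit in the cell membrane. They bind laminins, fibronectin or collagens outside the cell and link to actin through talin, kindlin and their partners inside. Embryonic stem cells are known to make laminin and fibronectin and to attach through β1 integrins.

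The values are the authors' own: a mean normalized count, a log2 fold change with its standard error (SE) and a DESeq2 p, adjusted over the genes of the table that have one after the authors' filtering (13141 of 16149 in the smallest case). Genes with an adjusted p under 0.05 count as called, and a positive fold change means higher in the mutant group. The deposited fold changes are read as shrunken towards 0, so their sizes in different tables are not strictly comparable. Values per library were not analysed here. Group means were instead rebuilt by subtraction between the 4 tables for the 59 members in all of them. These means carry no error. The median gene of each group was set to wildtype, so a change shared by most genes would not show in them. Depth per library is unknown. The mean counts summed to 1.08e+07 to 1.26e+07 over a table, and a single gene held 31.1% to 40.6% of that sum. Markers of embryonic stem cells were abundant in every group, with summed rebuilt means over 10 of 10 markers of 20320 in wildtype, 22093 in single-targeted and 24665 in dual-targeted cells. Of the 10, 6 were called higher and 0 lower in dual-targeted lines, against 10.8% and 10.1% of all genes. At an unadjusted p under 0.05 (DESeq2) the counts were also 6 and 0, against 16.7% and 16% of all genes. Their median log2 fold change was 0.58. In the clones 5 were higher and 0 lower, against 9.05% and 10.3% of all genes (6 and 0 unadjusted, against 14.8% and 15.6%). Single-targeted lines had 1 higher and 0 lower (median 0.07), against 1.49% and 1.47% of all genes. Unadjusted, 4 were higher and 0 lower there, against 5.92% and 6.5%. The part of these markers in the members' changes was not tested.

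The stretches before the transcription start of 3 receptor and laminin genes are shown because of their opposite changes: Lamb1 and Itga3 rose in both mutant groups, and Itgav fell in dual-targeted lines. They come from RefSeq (GRCm38.p6), read 5′ to 3′ on the gene's strand, and stop at the first annotated exon base. Lamb1 is chr12:31265043-31265233 (plus strand), Itga3 is chr11:95076802-95076964 (minus strand) and Itgav is chr2:83724147-83724396 (plus strand). Capitals mark the GC box GGGCGG on either strand, the usual binding site of Sp factors.
Lamb1: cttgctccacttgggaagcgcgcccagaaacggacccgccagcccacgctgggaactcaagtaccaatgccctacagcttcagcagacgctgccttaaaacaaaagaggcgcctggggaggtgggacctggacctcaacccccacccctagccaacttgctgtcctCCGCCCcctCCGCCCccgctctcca
Itga3: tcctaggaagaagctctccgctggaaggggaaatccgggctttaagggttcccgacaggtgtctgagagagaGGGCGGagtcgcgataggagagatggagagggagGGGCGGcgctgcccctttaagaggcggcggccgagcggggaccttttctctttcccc
Itgav: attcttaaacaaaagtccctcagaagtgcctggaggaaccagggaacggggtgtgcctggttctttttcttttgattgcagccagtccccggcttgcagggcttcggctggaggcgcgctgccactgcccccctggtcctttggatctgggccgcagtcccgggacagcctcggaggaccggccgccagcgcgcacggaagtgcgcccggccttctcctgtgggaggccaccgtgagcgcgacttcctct
The Lamb1 and Itga3 stretches each held 2 GC boxes and that of Itgav none. A promoter was listed for 9 members that rose and 3 that fell in dual-targeted lines. Of these, 6 and 0 had a GC box in the 250 bases before the start. A link with the direction of change was not tested. Neither the AP-1 motif TGANTCA nor the TATA box TATAAA was in any of the 3. A promoter was listed for 46 members, each taken at a single start, and 29 had a GC box in the 250 bases before it. Among all 32851 listed promoters, not reduced to a single start per gene, 32.7% had one. The members and the whole list were thus not chosen alike, here and in the shares below. The members' promoters were also richer in G and C, with a median of 59.4% against 52.4%. An AP-1 motif was in 0 of the 46, against 6.75% of all promoters, and a TATA box in 3, against 12.4%. The capitals printed here are GC boxes only, so none overlaps another motif. A match or its absence in this window says nothing of whether a factor binds.

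In wildtype cells the members spanned a wide range of labelled RNA. Fibronectin, Fn1, stood highest at 139 normalized counts per kb of gene on the rebuilt scale, followed by agrin (Agrn, 77.3), a heparan sulfate proteoglycan. Next came the laminin α5 chain Lama5 (34.1 per kb of gene), the nidogen Nid2 (30.1) and the common integrin β1 subunit Itgb1 (28.2). Itga5 (17.4 per kb of gene), the fibronectin receptor's α subunit, and Itga6 (11.1), an α subunit of laminin receptors, followed among integrins. Lamb2 stood at 16.3 and Lamc1 at 9.21 per kb of gene. Collagens were low, with a median of 0.553 per kb of gene over 20 of them. The median was 1.93 for 17 integrin subunits, 6.37 for 7 laminins and 6.53 for 11 other matrix genes, against 10.3 for 12209 protein-coding genes. Col18a1 led the collagens at 10.96, ahead of Col7a1 (3.33) and Col9a2 (3.19). Whether intron reads were counted is not stated in the labels; 9 of the 10 highest per kb of gene were also among the 10 highest per kb of exon.

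**Figure D1:**
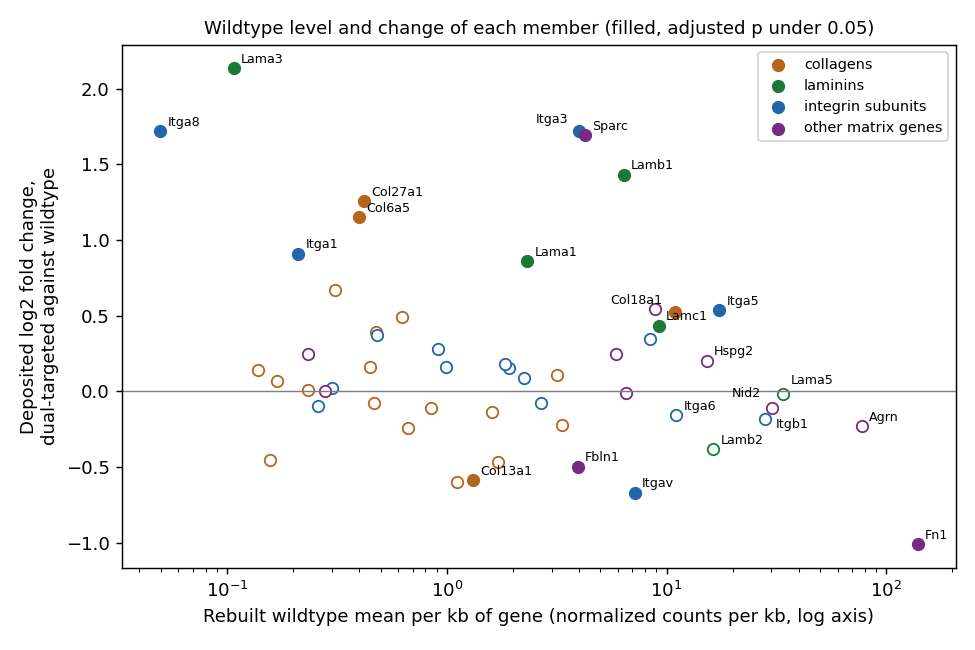
Rebuilt wildtype mean per kb of gene (x, log axis) against the deposited log2 fold change in dual-targeted lines (y) for 54 members in all 4 tables, coloured by family; filled points have an adjusted p under 0.05. Lama3 and Itga8 are low in wildtype and high on the y axis, while Fn1 is at the far right and lowest.

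As normalized counts, dual-targeted lines had more labelled RNA of 13 members than wildtype and less of 4. The rises were led by laminin chains, the integrin α3 subunit and Sparc, and the falls by fibronectin and the integrin αv subunit. Of the 64 members with an adjusted p, 26.6% were called, against 20.9% of all 16493 genes in the same table. Higher calls were 10.8% and lower calls 10.1% of all genes (16.7% and 16% at an unadjusted p under 0.05, DESeq2). The members' median log2 fold change was 0.09, against 0.0057 for all genes. In single-targeted lines 5 members were higher and 0 lower by DESeq2. At an unadjusted p under 0.05, 11 were higher and 2 lower, against 5.92% and 6.5% of all genes. There 8.77% of 57 members with an adjusted p were called, against 2.96% of 15030 genes (1.49% higher, 1.47% lower), and the members' median was 0.02 against 0.0026. All 5 were also called in dual-targeted lines, among them Lamb1, Lama1, Itga3 and Sparc. Both comparisons use the same 3 wildtype libraries, so they are not independent. The families differed in their counts, as the plot of called shares by family shows.

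**Figure D2:**
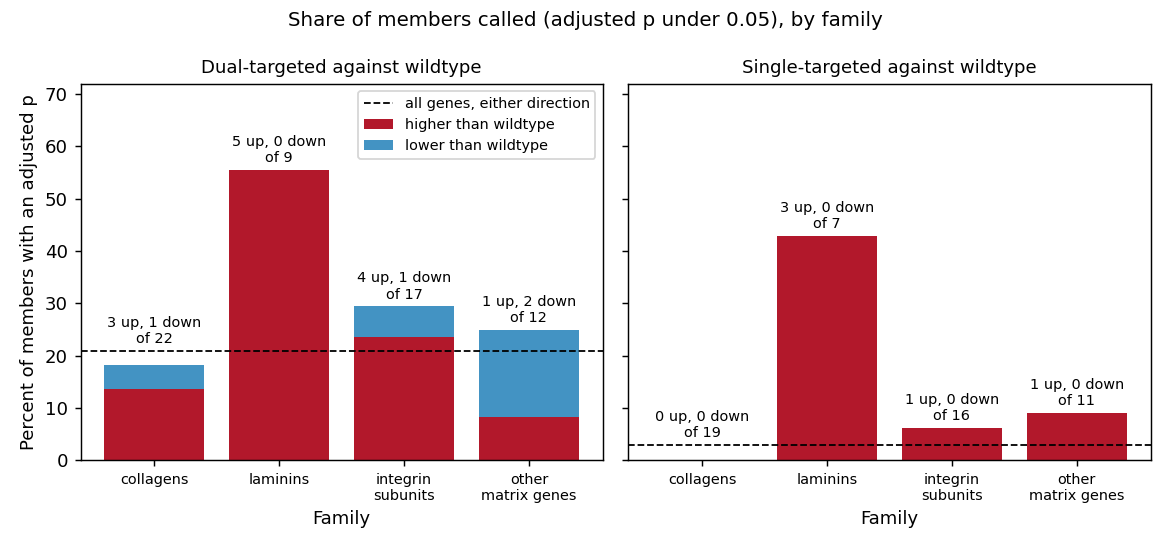
Percent of the members with an adjusted p that were called higher (red) or lower (blue) than wildtype, by family, in dual-targeted (left) and single-targeted (right) lines; the dashed line is the share of all genes called in either direction (20.9% and 2.96%). Laminins have the tallest bars, 5 of 9 and 3 of 7, and collagens lie below the line in both.

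Laminins were the family with the largest share of calls. In dual-targeted lines 5 of 9 chains rose and 0 fell by DESeq2 (5 and 1 at an unadjusted p under 0.05), with a median log2 fold change of 0.43. In single-targeted lines 3 of 7 chains with an adjusted p rose and 0 fell (3 and 0 unadjusted), with a median of 0.16. Lamc1 (chromosome 1, 153218922 to 153332786, GRCm38) encodes the γ1 chain shared by most laminins. Its rebuilt mean stood at 1049 normalized counts in wildtype, 1331 in single-targeted lines, 1559 in the clones and 1269 in the third line. All mutant means lay above wildtype, and the authors' deposited table gave Lamc1 a log2 fold change of 0.43 ± 0.18 (SE, adjusted p = 0.0349) in dual-targeted and 0.20 ± 0.18 (adjusted p = 0.465) in single-targeted lines. Lamc1 overlaps Gm38009 on the same strand, so reads of this pair are uncertain.

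Lama3 (chromosome 18, 12333819 to 12583013) encodes the α3 chain of epithelial basement membranes. Its rebuilt means were 26.7 in wildtype, 45.0 in single-targeted lines, 129 in the clones and 109 in the third line. The dual-targeted lines stood apart from both other groups. For Lama3, the authors' deposited table gave 2.13 ± 0.35 (adjusted p = 1.09e-08) in dual-targeted and 0.12 ± 0.22 (adjusted p = 0.52) in single-targeted lines. Its direct comparison of dual-targeted with single-targeted lines gave 1.22 ± 0.43 (adjusted p = 0.00994) in the authors' deposited table.

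Lamb1 (chromosome 12, 31265234 to 31329644) and Lama1 (chromosome 17, 67697259 to 67822647) encode the β1 and α1 chains, which join γ1 in the laminin of early embryos. Lamb1 stood at 410.5 in wildtype, 796 in single-targeted lines, 976 in the clones and 1464 in the third line. Lama1 stood at 292 in wildtype, 509 in single-targeted lines, 591 in the clones and 474 in the third line. Every mutant mean of both genes lay above wildtype. For Lamb1, the authors' deposited table gave 1.43 ± 0.21 (adjusted p = 2.75e-10) in dual-targeted and 0.85 ± 0.24 (adjusted p = 0.00333) in single-targeted lines. For Lama1, the authors' deposited table gave 0.86 ± 0.22 (adjusted p = 2.94e-04) in dual-targeted and 0.68 ± 0.25 (adjusted p = 0.0208) in single-targeted lines. The direct comparison of the mutant groups called neither, at 0.30 ± 0.27 (adjusted p = 0.24) for Lamb1 and 0.07 ± 0.17 (adjusted p = 0.78) for Lama1 in the authors' deposited table. Lama5, the most abundant laminin chain per kb, was at -0.02 ± 0.19 (adjusted p = 0.952) in dual-targeted lines, per the authors' deposited table. Lamb2, the β2 chain, was at -0.38 ± 0.27 (adjusted p = 0.19) with all dual-targeted lines and at -0.68 ± 0.30 (adjusted p = 0.0296) with the 2 clones alone in the authors' deposited table. Its rebuilt mean was 176 in wildtype, 97.2 in the clones and 171 in the third line. Lama2 and Lama4 were not called.

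**Figure D3:**
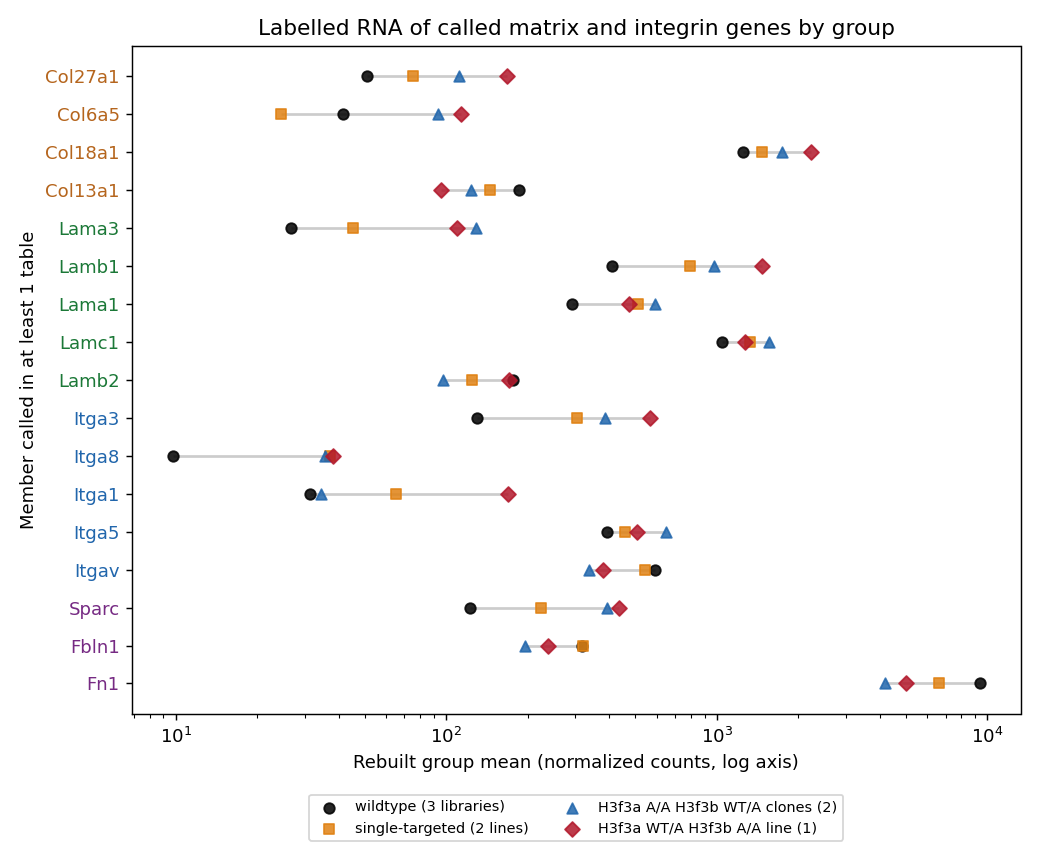
Rebuilt group means (x, normalized counts, log axis) of 17 members called in at least 1 table, for wildtype, single-targeted lines, the 2 clones (H3f3a A/A H3f3b WT/A), then the third line (H3f3a WT/A H3f3b A/A); grey lines join the lowest and highest group and no error can be given. For Lamb1, Itga3 and Sparc the wildtype point is lowest, and for Fn1 (9398) and Col13a1 (186) it is highest.

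Among integrin subunits 4 rose and 1 fell of 17 in dual-targeted lines (median 0.16), and 1 rose and 0 fell of 16 with an adjusted p in single-targeted lines (2 and 1 at an unadjusted p under 0.05, median 0.07). Itga3 (chromosome 11, 95044474 to 95076801) encodes α3, which pairs with β1 as a laminin receptor. It stood at 130 in wildtype, 305 in single-targeted lines, 387 in the clones and 564 in the third line. All mutant means were more than those of wildtype, by 3.44-fold over the dual-targeted lines and 2.35-fold over the single-targeted lines. In the authors' deposited table Itga3 was at 1.72 ± 0.26 (adjusted p = 3.20e-10) in dual-targeted and 1.12 ± 0.28 (adjusted p = 5.88e-04) in single-targeted lines. Itga6, the other main laminin-binding α subunit of these cells, was at -0.16 ± 0.17 (adjusted p = 0.514) in dual-targeted lines, per the authors' deposited table. Itgb1, the β1 partner of both, was at -0.18 ± 0.19 (adjusted p = 0.471) there in the authors' deposited table. Itgb1 lies on chromosome 8, where the median log2 fold change of 626 genes (those at a mean count of at least 50) was -0.32 in dual-targeted lines; the part of the chromosome in its value was not tested.

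Among receptors of fibronectin, transcripts of the α subunits Itga5 and Itgav moved in opposite directions in dual-targeted lines. Itga5 (chromosome 15, 103344286 to 103366763), which pairs with β1, stood at 392 in wildtype, 456 in single-targeted lines, 649 in the clones and 509 in the third line. Itgav (chromosome 2, 83724397 to 83806916), which pairs with several β subunits and binds fibronectin and vitronectin, stood at 593 in wildtype, 542 in single-targeted lines, 337 in the clones and 379 in the third line. For the dual-targeted group the authors' deposited table gave Itga5 0.54 ± 0.22 (adjusted p = 0.0299) and Itgav -0.67 ± 0.21 (adjusted p = 0.00325). For the single-targeted group the authors' deposited table gave Itga5 0.07 ± 0.16 (adjusted p = 0.817) and Itgav -0.06 ± 0.14 (adjusted p = 0.866). The αv partners Itgb5 and Itgb3 were not called, at 0.09 ± 0.18 (adjusted p = 0.75) and 0.02 ± 0.31 (adjusted p = 0.95) in dual-targeted lines, per the authors' deposited table.

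The other 2 rises were scarce transcripts. Itga8 (chromosome 2, 12106632 to 12301922), an α subunit that binds nephronectin, stood at 9.72 in wildtype, 37.3 in single-targeted lines, 35.7 in the clones and 38.1 in the third line. The mutant groups were close to each other and above wildtype. For Itga8, the authors' deposited table gave 1.72 ± 0.54 (adjusted p = 0.0012) in dual-targeted and 1.42 ± 0.81 (adjusted p = 0.0644) in single-targeted lines. Itga1 (chromosome 13, 114953096 to 115101964), a collagen-binding subunit, stood at 31.4 in wildtype, 65.2 in single-targeted lines, 34.4 in the clones and 168 in the third line. Its call in dual-targeted lines (0.91 ± 0.59, adjusted p = 0.0462) was absent in the clones alone (0.07 ± 0.31, adjusted p = 0.855) in the authors' deposited table. Nor was Itga1 called in single-targeted lines, at 0.02 ± 0.18 (adjusted p = 0.822) in the authors' deposited table. Itga1 overlaps Pelo on the same strand, so reads of this pair are uncertain.

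Fibronectin and Sparc were the other matrix genes with the smallest adjusted p. Among the 14, 1 rose and 2 fell of 12 with an adjusted p in dual-targeted lines (median 0.0039), and 1 rose and 0 fell of 11 in single-targeted lines (5 and 1 at an unadjusted p under 0.05, median 0.0064). Fn1 (chromosome 1, 71585520 to 71653200), the adhesive glycoprotein bound by α5β1 and αv integrins, stood at 9398 in wildtype, 6622 in single-targeted lines, 4191 in the clones and 5006 in the third line. Wildtype was highest, and the dual-targeted mean was 0.475 of it. In the authors' deposited table Fn1 was at -1.01 ± 0.18 (adjusted p = 3.46e-07) in dual-targeted and -0.35 ± 0.22 (adjusted p = 0.188) in single-targeted lines. The direct comparison of the mutant groups gave Fn1 -0.45 ± 0.19 (adjusted p = 0.0515) in the authors' deposited table. An antisense gene, Apol7d, overlaps Fn1. Fbln1 (chromosome 15, 85205949 to 85286535), a fibulin that binds fibronectin and laminin, was at 318 in wildtype, 319 in single-targeted lines, 196 in the clones and 237 in the third line. It fell by 0.50 ± 0.23 (adjusted p = 0.0482) on the log2 scale in dual-targeted lines, per the authors' deposited table.

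Sparc (chromosome 11, 55394500 to 55423183), a collagen-binding glycoprotein secreted into basement membranes, stood at 122 in wildtype, 223 in single-targeted lines, 394 in the clones and 435 in the third line. The order was wildtype, then single-targeted, then both kinds of dual-targeted line. For Sparc, the authors' deposited table gave 1.69 ± 0.22 (adjusted p = 9.91e-13) in dual-targeted and 0.71 ± 0.28 (adjusted p = 0.0283) in single-targeted lines. The mutant groups also differed from each other, by 0.74 ± 0.26 (adjusted p = 0.0147) in the authors' deposited table. The basement membrane partners of laminin were not called in dual-targeted lines: the authors' deposited table gave Nid1 0.25 ± 0.19 (adjusted p = 0.304), Nid2 -0.11 ± 0.18 (adjusted p = 0.684), perlecan (Hspg2) 0.20 ± 0.19 (adjusted p = 0.416) and Agrn -0.23 ± 0.20 (adjusted p = 0.363). Nid2 lies on chromosome 14, where the median of 395 genes was -0.25 in dual-targeted lines; the part of the chromosome in its value was not tested. Thrombospondin 1, Thbs1, had the highest fold change of any member, 4.69 ± 1.49 in dual-targeted lines, with its p and adjusted p left empty in the authors' deposited table. Without a p it is no call. The dual-targeted against single-targeted fit gave a shrunken 0.03 ± 0.25 (DESeq2 adjusted p = 0.6) in the authors' deposited table. Thbs1 had no row in the single-targeted or the clone comparison, and both comparisons with a row include the third line. Its values therefore cannot be read apart from that single library, and the 0.03 does not show equal amounts in the mutant groups. Versican, fibrillins, Fbln2 and Thbs3 were not called.

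**Figure D4:**
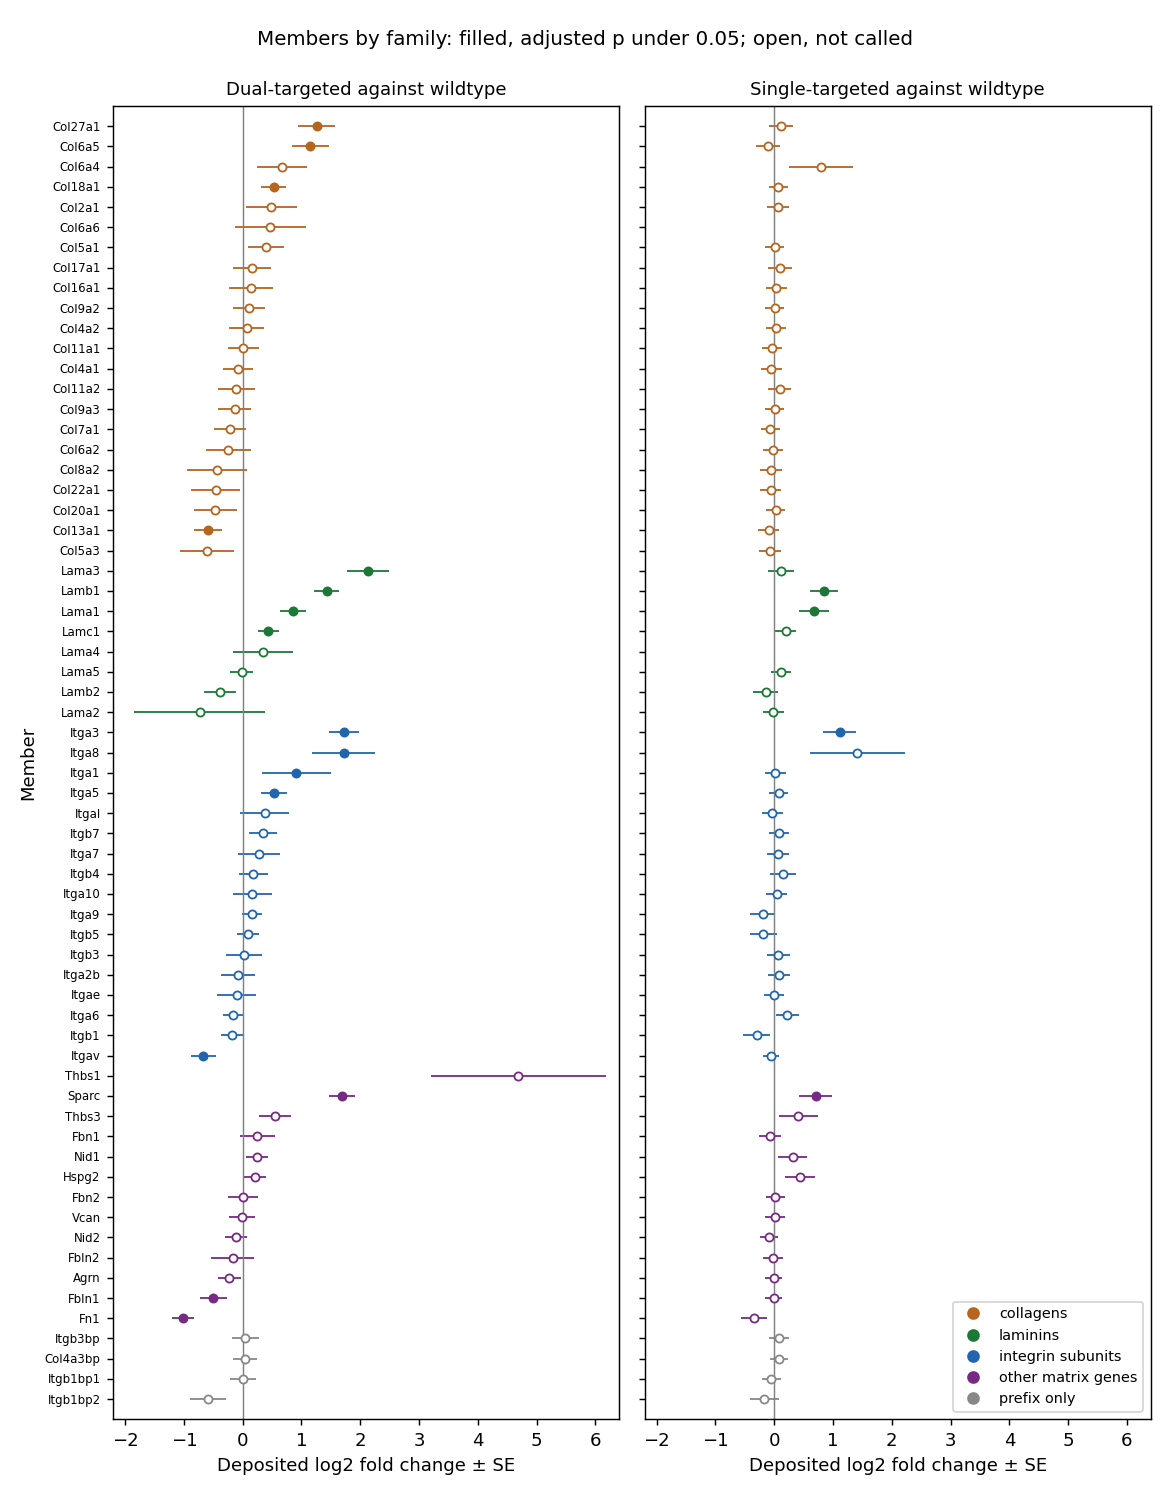
Deposited log2 fold change ± SE (x) of 64 members with a row in the dual-targeted comparison (left) and the same genes in the single-targeted comparison (right), by family and sorted by the left value; filled points have an adjusted p under 0.05. A laminin chain holds the highest called value shown (Lama3 at 2.13), most collagens lie near 0, and Thbs1 is open because its p is empty.

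Collagens were mostly low and mostly without a call. In dual-targeted lines 3 rose and 1 fell of 22 (18.2%), with a median of 0.04. In single-targeted lines 0 rose and 0 fell of 19 with an adjusted p by DESeq2 (1 and 0 at an unadjusted p under 0.05), with a median of 0.0090. Of the 20 collagens in all 4 tables, 17 had a rebuilt wildtype mean under 100. Col27a1 (chromosome 4, 63214004 to 63334991), a fibrillar collagen, stood at 50.7 in wildtype, 75.3 in single-targeted lines, 112 in the clones and 168 in the third line. It was at 1.26 ± 0.31 (adjusted p = 9.77e-05) in dual-targeted and 0.12 ± 0.21 (adjusted p = 0.587) in single-targeted lines, per the authors' deposited table. Col6a5 (chromosome 9, 105856078 to 105960643), a type VI chain, stood at 41.5 in wildtype, 24.5 in single-targeted lines, 93.0 in the clones and 113 in the third line. Single-targeted lines lay lowest and dual-targeted lines highest. For Col6a5, the authors' deposited table gave 1.15 ± 0.32 (adjusted p = 4.57e-04) in dual-targeted and -0.10 ± 0.21 (adjusted p = 0.552) in single-targeted lines. The direct comparison of the mutant groups gave Col6a5 1.85 ± 0.43 (adjusted p = 2.37e-04) in the authors' deposited table.

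Col18a1 (chromosome 10, 77052178 to 77166548), the basement membrane collagen that releases endostatin, stood at 1254 in wildtype, 1465 in single-targeted lines, 1743 in the clones and 2226 in the third line. Col13a1 (chromosome 10, 61838236 to 61979108), a transmembrane collagen, stood at 186 in wildtype, 145 in single-targeted lines, 123 in the clones and 95.9 in the third line. In both genes the third line lay farthest from wildtype. For the dual-targeted group the authors' deposited table gave Col18a1 0.53 ± 0.21 (adjusted p = 0.0276) and Col13a1 -0.59 ± 0.24 (adjusted p = 0.0226). With the clones alone neither was called, at 0.40 ± 0.23 (adjusted p = 0.144) for Col18a1 and -0.46 ± 0.25 (adjusted p = 0.106) for Col13a1 in the authors' deposited table. Col18a1 overlaps Slc19a1 on the other strand, and whether reads were counted by strand is not stated in the labels. The type IV chains that share a promoter region on chromosome 8, Col4a1 and Col4a2, were at -0.08 ± 0.26 (adjusted p = 0.819) and 0.07 ± 0.30 (adjusted p = 0.84), with the same median of that chromosome beside them, in dual-targeted lines, per the authors' deposited table. Of the 4 genes with only a shared prefix, 0 were called in either comparison with wildtype (0 higher and 1 lower at an unadjusted p under 0.05 in dual-targeted lines, by DESeq2).

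The mutant groups were also set against each other. There 3 members were higher in dual-targeted lines and 0 lower by DESeq2 (8 and 5 at an unadjusted p under 0.05, against 11.1% and 8.87% of all genes). The 3 were Col6a5, Lama3 and Sparc. They are 5.88% of 51 members with an adjusted p, against 7.06% of 13141 genes (4.37% higher, 2.69% lower), and the members' median was -0.01 against -0.0014 for all genes. In the clones alone, 11 members were higher than wildtype and 4 lower. That is 25.4% of 59, against 19.3% of 15640 genes (9.05% higher, 10.3% lower). The 11 rises were all among the 13 of the whole dual-targeted group (100% of one list and 84.6% of the other), and 3 of the 4 falls were shared (75.0% of each list). These tables share wildtype and clone libraries, so overlap between their lists follows in part from the shared libraries. The overlap over all genes is not given here, so these shares cannot be read as a trait of the members.

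Genes around the members were counted from lists set by known role. Beside these counts stand the shares of all genes called higher and lower, 10.8% and 10.1% in dual-targeted lines and 9.05% and 10.3% in the clones. In single-targeted lines these shares are far smaller, 1.49% and 1.47%, or 5.92% and 6.5% at an unadjusted p under 0.05 (DESeq2). Of 28 measured adhesome genes, which tie integrins to actin, 6 rose and 3 fell in dual-targeted lines (median 0.14), and 1 higher and 0 lower in single-targeted lines (1 and 2 at an unadjusted p under 0.05). In the clones, without the library of the third line, 2 were higher and 2 lower. The actin crosslinker Actn4 (0.73 ± 0.17, adjusted p = 9.36e-05) and the filamin-binding Fblim1 (0.82 ± 0.19, adjusted p = 1.14e-04) rose in dual-targeted lines, per the authors' deposited table. The tensin Tns1 (-0.84 ± 0.22, adjusted p = 4.33e-04) fell there in the authors' deposited table. Genes that fold, modify or crosslink collagen had 5 of 23 higher and 2 lower in dual-targeted lines (median 0.13), and 0 higher and 1 lower in single-targeted lines (2 and 4 unadjusted). In the clones 3 were higher and 2 lower. The authors' deposited table gave the chaperone Fkbp10 1.18 ± 0.29 (adjusted p = 1.31e-04) and the lysyl hydroxylases Plod2 0.58 ± 0.22 (adjusted p = 0.0142) and Plod1 -0.68 ± 0.25 (adjusted p = 0.00984) in dual-targeted lines.

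Other matrix receptors and surface proteoglycans had 5 of 17 higher and 3 lower in dual-targeted lines (median 0.17), and 2 of 16 higher and 0 lower in single-targeted lines (3 and 0 unadjusted). In the clones 2 were higher and 3 lower. The glypican Gpc4 was at 1.92 ± 0.23 (adjusted p = 4.00e-15) in dual-targeted and 1.05 ± 0.31 (adjusted p = 0.00354) in single-targeted lines, per the authors' deposited table. The laminin receptor Bcam (1.19 ± 0.26, adjusted p = 1.74e-05) and the collagen receptor Ddr2 (2.67 ± 0.66, adjusted p = 8.14e-05) rose in dual-targeted lines, per the authors' deposited table. Matrix proteins outside the symbol pattern had 1 of 25 higher and 5 lower in dual-targeted lines (median -0.15), and 0 of 24 higher and 1 lower in single-targeted lines (0 and 4 unadjusted). In the clones 1 was higher and 8 lower of 23, with a median of -0.34. Falls in dual-targeted lines, per the authors' deposited table, were Ltbp1 (-1.38 ± 0.30, adjusted p = 1.31e-05), which holds latent TGF-β in the matrix, Tgfbi (-1.74 ± 0.48, adjusted p = 3.34e-04) and Matn2 (-1.41 ± 0.43, adjusted p = 0.00129).

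Matrix proteases and their inhibitors had 3 of 26 higher and 3 lower in dual-targeted lines (median -0.05), and 1 of 24 higher and 0 lower in single-targeted lines (2 and 0 unadjusted). These shares are near those of all genes, and the clones also had 3 higher and 3 lower. The rises in dual-targeted lines, per the authors' deposited table, were the protease Adamts1 (3.06 ± 0.53, adjusted p = 5.55e-08), the serine protease Htra1 (2.72 ± 0.51, adjusted p = 3.89e-07) and the urokinase receptor Plaur (1.20 ± 0.29, adjusted p = 1.08e-04). Genes that respond to TGF-β, SRF or YAP had 5 of 16 higher and 1 lower in dual-targeted lines (median 0.46), and 1 of 15 higher and 0 lower in single-targeted lines (2 and 1 unadjusted). In the clones 5 were higher and 2 lower, with a median of 0.22. Among them in the authors' deposited table were the calponin Cnn2 (1.86 ± 0.36, adjusted p = 9.23e-07), Amotl2 (1.14 ± 0.23, adjusted p = 3.37e-06), a YAP-binding angiomotin, and the inhibitory Smad7 (0.66 ± 0.17, adjusted p = 3.23e-04) in dual-targeted lines.

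Laminin α1, β1 and γ1 and Sparc are also abundant products of primitive and parietal endoderm, so markers of that and other lineages were read beside them. Of 19 endoderm markers 8 had a row in the dual-targeted table, none above a mean count of 26.3, and 1 was called higher. That was Sox7 (1.57 ± 1.11, adjusted p = 0.0319) at a mean count of 7.29 in the authors' deposited table. The defining factors Gata4 and Gata6 had mean counts of 13.9 and 8.04 and log2 fold changes of 0.11 ± 0.34 (adjusted p = 0.715) and 0.34 ± 0.54 (adjusted p = 0.206) in the authors' deposited table. Over the 4 endoderm markers in all tables, rebuilt means summed to 65.8 in wildtype, 84.7 in single-targeted lines, 51.6 in the clones and 111 in the third line. The sum leaves out Sox7 and Gata6, which lack rebuilt means; in the clones Gata6 was at 0.79 ± 1.09 (unadjusted DESeq2 p = 0.0239, adjusted p empty), per the authors' deposited table. Of 14 fibroblast markers 2 had a row in that table, Thy1 (mean count 25.2) and Tagln (44.7, p left empty), and 0 were called (0 and 0 unadjusted, DESeq2). Mesoderm, trophectoderm and neural markers had 1 of 4, 1 of 6 and 2 of 5 called higher and 0 lower. Unadjusted, 0, 1 and 0 were lower, against 16% of all genes. Those called in dual-targeted lines were Kdr, Krt8, Nes and Tubb3, against 10.8% of all genes higher and 10.1% lower. In the clones 1 of 4, 0 of 5 and 2 of 5 were higher, against 9.05% of all genes. Pax6, a neural marker, was called lower there (-0.58 ± 0.27, DESeq2 adjusted p = 0.0429). The part of these lineage markers in the members' changes was not tested.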

How the data were processed

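Newly made RNA of 8 libraries was compared in 4 tables of the authors' own DESeq2 comparisons, each normalized and fitted separately. Per the submitters' processing notes, STAR, SAMtools, featureCounts, DESeq2 and deepTools were used with mm10 and GRCm38.p6, without versions. Per the file headers, the deposited signal is the mean normalized count of the compared libraries, beside a deposited log2 fold change with its SE, a p-value and an adjusted p-value. Empty adjusted p-values were kept empty. The fold changes of 100% of called genes were smaller than their p implies with the deposited SE, and were read as shrunken.

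Group means were rebuilt by linear algebra on the 4 mean columns over 15571 genes. Scales of 0.983, 1.06 and 0.957 set the median gene of each group to wildtype, using genes whose mean count reached 50; 2 genes had a mean below 0. The rebuilt direction matched the fold change in 100% of 2726, 387, 885 and 2504 called genes. The method was tested on simulated data.

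Gene positions and lengths came from GENCODE mouse release 21 (GRCm38), which matched 67 of 67 members; promoters came from RefSeq. Named were the members called in any table, the 3 highest per kb of each family, and up to 3 genes of each list by adjusted p; a few further members were named for their role. Thbs1, Col4a1, Col4a2, Itgb3 and Itgb5 were named after their values were seen. The members and lists were chosen with earlier results of these data known. The counts include 1 member whose own values are not reported here. The alternatives tried were other thresholds, filters, centring, member sets and lengths. Scripts ran in Python 3.11.15. Tables were handled with pandas 2.3.3, sums with numpy 2.4.6, correlations with scipy 1.17.1, and plots were drawn with matplotlib 3.10.9.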

Additional observations from a re-analysis of the deposited data

Results flagged for a closer look

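Of the members, 3 had a call in the direct comparison of dual-targeted with single-targeted lines, so their difference from wildtype was not the same in the 2 mutant groups. Their log2 fold changes in the authors' deposited table were 1.85 for Col6a5, 1.22 for Lama3 and 0.74 for Sparc. Col6a5 and Lama3 had no call in single-targeted lines. Sparc had one there, with a rebuilt mean of 223 against 408 in dual-targeted lines. Rebuilt wildtype means of Col6a5 (41.5) and Lama3 (26.7) are low, and each mutant line was profiled a single time.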

How the results depend on the processing

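Of 77 repeats of the counts and medians over all members, 72 stayed within 1.5 times the count or within the members' median SE. Some counts could not move: no called member lies on chromosome 8 or 14 or shares only a prefix, and leaving these out was among the repeats. For medians the allowance is wide, with an SE of 0.27 beside a median of 0.09 in dual-targeted lines. The 72 are therefore a weak check. The 5 that moved came from stricter or looser thresholds or another estimate. At an adjusted p under 0.01, falls went from 4 to 2 in dual-targeted lines and from 4 to 2 in the clones, and rises in single-targeted lines from 5 to 3. At an adjusted p under 0.1, falls between the mutant groups went from 0 to 2. The members' median in single-targeted lines was 0.02 as deposited and 0.22 as a log2 ratio of rebuilt means (pseudocount 1). Without the third line, in the authors' deposited table of the clones, the dual-targeted comparison held 11 rises and 4 falls in place of 13 and 4, and the median went from 0.09 to 0.04. Of 18 members called in any table, Col13a1, Col18a1 and Itga1 lost their call there and Lamb2 gained one; none reversed. Without rescaling between tables the median log2 ratio of rebuilt means was -0.0086 in place of 0.18, so small differences between rebuilt means cannot be read. No other library could be left out, since values per library were not analysed here. No paired analysis was possible because the tables hold no values per library and the clone and wildtype numbers mark no shared source.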

Other observations

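The members are long genes, with a median of 63.7 kb over 61 of them in the dual-targeted table against 24.9 kb for 12655 protein-coding genes. Across those protein-coding genes, longer ones had lower fold changes in dual-targeted lines (Spearman's rho -0.24, across genes, which are not independent replicates). Over the 61 members rho was 0.08. With the line on gene length taken out, the members' median in dual-targeted lines was 0.18 in place of 0.09.

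The 2 kinds of dual-targeted line differed in some members without a test. Itga1 stood at 34.4 rebuilt normalized counts in the clones and 168 in the third line, and Vcan at 441 and 792. The third line is a single library.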
